A study of Caenorhabditis elegans and Caenorhabditis briggsae with 26 samples.

Results

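Young adults of the nematodes Caenorhabditis elegans and Caenorhabditis briggsae were compared with late L4 larvae, the last larval phase before adulthood, by poly(A)-selected RNA sequencing. The comparison rests on 4 of the 26 libraries of the series, 1 library per stage and species, and the 2 species serve as its replicates. C. elegans young adults (wild-type strain N2) were collected 57 h after food was given to arrested L1 larvae, against 52 h for C. elegans late L4 larvae. C. briggsae young adults (wild-type strain AF16) were collected at 63 h, against 53 h for C. briggsae late L4 larvae. All animals were whole, unsorted populations grown at 20 °C in liquid medium with E. coli as food, staged under the microscope by size and vulval development, and the young adults carried no eggs yet. The interval was therefore 5 h in C. elegans and 10 h in C. briggsae, so that a difference between the species and a difference in interval cannot be told apart. Of 21774 gene IDs, 13813 had a C. briggsae value of their own and are called ortholog pairs here. Of these, 12945 with at least 1 RPKM (reads per kilobase of gene model, scaled to the mapped reads of the library) in at least 2 of the 14 samples of the fit were tested. Another 7836 IDs had no C. briggsae value and are described separately, and 125 IDs that shared a C. briggsae value were left out.

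In the late L4 stage the epidermis secretes the adult cuticle beneath the larval one, which is then shed in the last molt, and the vulva and uterus take their final form. Both species are self-fertile hermaphrodites whose germ line first makes sperm and then changes over to oocytes. In the adult the intestine makes yolk proteins (vitellogenins), which oocytes take up through the receptor RME-2, and each fertilized oocyte builds an eggshell. The cuticle is built largely from collagens, of which some form the furrows and struts that shape the body.

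Markers of oocytes summed to 2078 RPKM in C. elegans and 1339 RPKM in C. briggsae young adults, against 26.0 RPKM in C. elegans and 25.4 RPKM in C. briggsae late L4 larvae. These sums cover 6 markers in C. elegans and 5 in C. briggsae, where oma-2 had no value. Of 8 zygotic embryo markers, end-1, end-3, med-1, tbx-37, tbx-38, hnd-1 and ceh-51 stayed under 1 RPKM in the young adults where they had a value, elt-1 was at 2.80 RPKM in C. elegans and 5.28 RPKM in C. briggsae young adults. The 4 male markers summed to 0.840 RPKM in C. elegans young adults, against 2.65 RPKM in C. elegans late L4 larvae. In C. briggsae, where 3 of them had a value, the sum was 3.69 RPKM in young adults against 3.24 RPKM in late L4 larvae. The male marker pkd-2 was at 1.102 RPKM in C. briggsae young adults against 0.201 RPKM in late L4 larvae. The sums of the intestinal, neuronal and muscle markers were lower in young adults. The 3 intestinal markers summed to 609.2 RPKM in C. elegans and 502.5 RPKM in C. briggsae young adults, against 1673 RPKM in C. elegans and 1382 RPKM in C. briggsae late L4 larvae. Most of this sum was act-5, at 587.7 RPKM in C. elegans and 432.6 RPKM in C. briggsae young adults. The intestinal marker ges-1 was higher in C. briggsae young adults, at 66.3 RPKM against 51.8 RPKM in late L4 larvae. The 2 neuronal markers summed to 61.7 RPKM in C. elegans and 90.4 RPKM in C. briggsae young adults, against 186.4 RPKM in C. elegans and 225.7 RPKM in C. briggsae late L4 larvae, and the 2 muscle markers to 436.5 and 436.6 RPKM in young adults, against 571.7 RPKM in C. elegans and 696.4 RPKM in C. briggsae late L4 larvae. The part of a changed share of tissues in the results was not tested. The 7 markers of the molting epidermis summed to 30.2 RPKM in C. elegans young adults against 1663 RPKM in late L4 larvae, but 48.8 RPKM in C. briggsae young adults against only 159 RPKM in late L4 larvae. The collagen gene col-7 was listed as a marker of the young adult cuticle. It stood at 3887 RPKM in C. briggsae late L4 larvae and 0.591 RPKM in C. elegans late L4 larvae. In C. briggsae it was also at 1115 RPKM in L2 larvae and 1052 RPKM in L4 larvae, but at 233.4 RPKM in young adults. In C. briggsae col-7 thus did not mark the young adult. In an earlier stage, the C. elegans L2 library carried vit-2 at 208.6 RPKM and col-19 at 18.6 RPKM, above the 33.0 and 1.71 RPKM of the L3 library. Sums of RPKM ran from 612093 to 726951 over the 4 libraries, and the absolute read depth is unknown. In whole animals, fewer cells of a type and less RNA per cell cannot be told apart.

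Of the 12945 ortholog pairs, 854 were called higher in young adults (6.60%) and 218 lower (1.68%), by limma on an additive model of species and stage with Benjamini-Hochberg adjusted p under 0.05. These shares are the background for the counts of gene lists below. Some genes stand in several lists, such as ptr-4 in the molting and hedgehog lists and clec-87 in the eggshell and C-type lectin lists. The counts of such lists share calls. All 1072 called pairs had the same direction in both species, which the additive model favours, since it counts a difference between the species as error. A change of at least 2-fold in each species held for 799 of the pairs called higher and 207 of those called lower. Without regard to the test, 1274 pairs (9.84%) were at least 2-fold higher and 1052 (8.13%) at least 2-fold lower in young adults of each species. The fitted SE had a median of 0.73 (log2) among the pairs 2-fold lower in each species and of 0.45 among those 2-fold higher, and a smaller part of the lower pairs passed the test. At an unadjusted p under 0.05 there were 3234 pairs. The median pair stood at -0.12 on the log2 scale. Median-ratio scaling put it at -0.28, and then 706 pairs were called higher and 314 lower. The counts also hang on single libraries. Without the C. elegans late L4 library 312 pairs were called higher and 21 lower, without C. elegans young adults 445 and 26, without C. briggsae late L4 larvae 300 and 91, and without C. briggsae young adults 933 and 230.

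**Figure D1:**
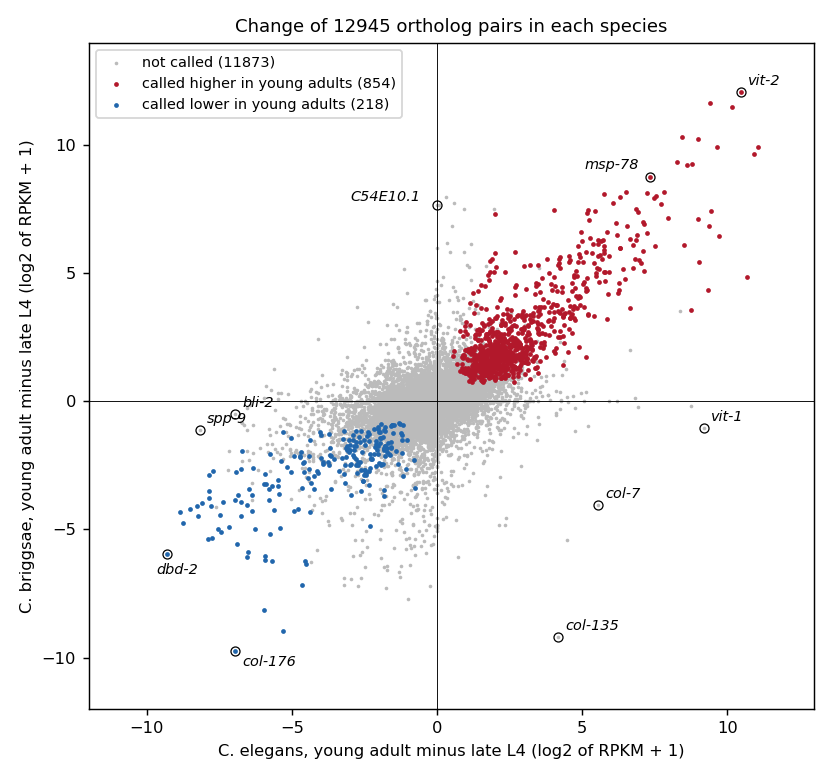
Log2 difference of RPKM + 1 between young adults and late L4 larvae in C. elegans (x axis) and C. briggsae (y axis), 1 point per ortholog pair tested. Red points are the 854 pairs called higher in young adults, blue points the 218 called lower and grey points those not called. Pairs with a circle carry their name, and vit-1, col-7 and col-135 lie in the quadrant where C. elegans is higher and C. briggsae lower.

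Yolk protein genes had the largest fitted rises of all pairs. Of 5 vitellogenin pairs 4 rose, and the median fitted difference of the 5 was 10.51 on the log2 scale, against -0.12 over all pairs tested. The yolk protein gene vit-2 (X, 5101042 to 5106169 in WBcel235) had 3114 RPKM in C. elegans and 4885 RPKM in C. briggsae young adults, against 1.22 RPKM in C. elegans and 0.144 RPKM in C. briggsae late L4 larvae. Its fitted difference was 11.26 ± 1.73 (log2, SE; adjusted p = 0.00469). The level of vit-6 (IV, 8261157 to 8266459), which codes for the precursor of the smaller yolk proteins, was 4042 RPKM in C. elegans and 8700 RPKM in C. briggsae young adults, against 0.920 RPKM in C. elegans and 7.84 RPKM in C. briggsae late L4 larvae. For both genes the young adult and late L4 values were far apart in each species. The near-identical genes vit-3 and vit-4 rose by 10.82 ± 1.105 and 10.51 ± 0.95, and reads shared between such copies make the split between them uncertain.

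The vitellogenin gene vit-1 was high in young adults of C. elegans but not of C. briggsae. It had 647.1 RPKM in C. elegans and 0.331 RPKM in C. briggsae young adults, against 0.115 RPKM in C. elegans and 1.74 RPKM in C. briggsae late L4 larvae, and was not called (4.07 ± 2.16, adjusted p = 0.276). The species difference in its change was -10.23 ± 0.59 (log2, C. briggsae minus C. elegans; adjusted p = 4.40e-04). The source of its ortholog pairing and the treatment of reads shared with other vitellogenins are unknown. The C. elegans gene vit-5, with no C. briggsae value, had 1388 RPKM in young adults and 0.0824 RPKM in late L4 larvae. All vitellogenins together took 1.53% of the RPKM sum in C. elegans and 3.25% in C. briggsae young adults, against 3.41e-04% in C. elegans and 0.00151% in C. briggsae late L4 larvae. The C. briggsae shares leave out vit-5 and are of a sum over 13938 IDs, against 21774 in C. elegans, so their sizes are not like for like. By limma 0 of the 11 genes listed as regulators of the yolk program were called in either direction, and 4 had an unadjusted p under 0.05. All 11 fitted differences were negative, with a median of -1.04. At least 2-fold lower in each species were 4 of the 11, against 8.13% of all pairs. The gut GATA factor gene elt-2 had 6.50 RPKM in C. elegans and 3.61 RPKM in C. briggsae young adults, against 27.9 RPKM in C. elegans and 9.24 RPKM in C. briggsae late L4 larvae (-1.55 ± 0.58, adjusted p = 0.139). The receptor gene rme-2 rose by 6.14 ± 0.82 to 338.2 RPKM in C. elegans and 316.5 RPKM in C. briggsae young adults, against 3.35 RPKM in C. elegans and 4.00 RPKM in C. briggsae late L4 larvae.

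**Figure D2:**
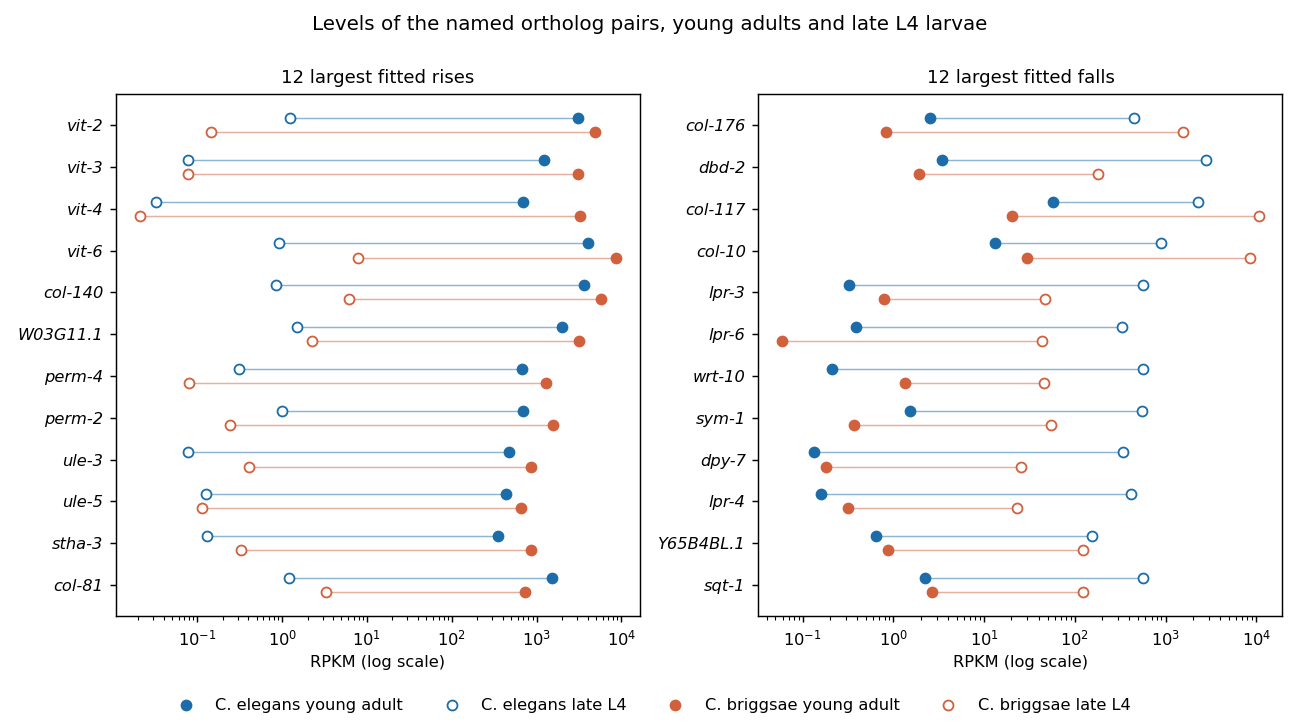
RPKM on a log axis of the 12 ortholog pairs with the largest fitted rise (left) and the 12 with the largest fitted fall (right) among the called pairs that changed at least 2-fold in each species. Filled points are young adults and open points late L4 larvae, blue for C. elegans and orange for C. briggsae; in all 24 pairs the 2 stages are apart in the same direction in both species.

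Single collagen genes had some of the largest changes of all pairs, in both directions. Among 123 tested members of the col- family of cuticle collagens, 15 rose and 8 fell. By size the family leaned the other way, with a median fitted difference of -1.14 against -0.12 over all pairs. Without regard to the test, 42 of the 123 were at least 2-fold lower in each species, against 8.13% of all pairs. At least 2-fold higher in each species were 17, against 9.84% of all pairs. The collagen gene col-140 (V, 5835855 to 5836834) had 3586 RPKM in C. elegans and 5736 RPKM in C. briggsae young adults, against 0.856 RPKM in C. elegans and 6.15 RPKM in C. briggsae late L4 larvae (10.28 ± 1.58, adjusted p = 0.00460). For col-81 the young adult values were 1527 RPKM in C. elegans and 738.1 RPKM in C. briggsae, against 1.202 RPKM in C. elegans and 3.33 RPKM in C. briggsae late L4 larvae (8.43 ± 0.64, adjusted p = 8.94e-05). The adult collagen gene col-19, the standard marker of the adult epidermis, had 1950 RPKM in C. elegans and 1617 RPKM in C. briggsae young adults, against 0.205 RPKM in C. elegans and 55.7 RPKM in C. briggsae late L4 larvae. It rose by 7.75 ± 1.36 (adjusted p = 0.00914), and its change was less positive in C. briggsae by 5.83 ± 0.62 (adjusted p = 0.00231).

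Further collagens that rose were col-122 (8.10 ± 1.36), col-106 (8.07 ± 1.18), col-124 (8.04 ± 0.66), col-178 (7.71 ± 0.87), col-184 (7.22 ± 1.33) and col-139 (7.03 ± 0.53). The largest fitted fall of all pairs was that of col-176 (X, 10077597 to 10078728), with 2.55 RPKM in C. elegans and 0.818 RPKM in C. briggsae young adults, against 443.4 RPKM in C. elegans and 1568 RPKM in C. briggsae late L4 larvae (-8.36 ± 1.38, adjusted p = 0.00672). The gene col-117 had 57.0 RPKM in C. elegans and 20.3 RPKM in C. briggsae young adults, against 2280 RPKM in C. elegans and 10619 RPKM in C. briggsae late L4 larvae (-7.13 ± 0.85, adjusted p = 0.00104). For col-10 the values were 13.2 RPKM in C. elegans and 29.4 RPKM in C. briggsae young adults, against 890.4 RPKM in C. elegans and 8513 RPKM in C. briggsae late L4 larvae (-7.05 ± 0.82, adjusted p = 8.88e-04). All collagens together took 6.46% of the RPKM sum in C. elegans and 6.33% in C. briggsae young adults, against 3.71% in C. elegans and 11.6% in C. briggsae late L4 larvae, so the species differed in the direction of the family's total. The C. briggsae shares leave out collagens with no C. briggsae value, such as col-119 and col-8, so the sets differ between the species. The col- counts were 10 higher and 5 lower without C. elegans young adults, 7 and 6 without C. elegans late L4 larvae, and 14 and 12 without C. briggsae late L4 larvae.

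Major sperm proteins are the small cytoskeletal proteins that drive sperm crawling and also signal to oocytes. Of their 4 ortholog pairs 3 rose. The pair msp-78 had 208.2 RPKM in C. elegans and 612.0 RPKM in C. briggsae young adults, against 0.299 RPKM in C. elegans and 0.404 RPKM in C. briggsae late L4 larvae (8.05 ± 0.40, adjusted p = 3.48e-05). The rises of msp-40 (7.68 ± 0.44) and msp-53 (7.15 ± 0.59) were similar in size. The pair msp-32 was not called (4.73 ± 1.304, adjusted p = 0.0584), with 3.02 RPKM in C. elegans and 229.6 RPKM in C. briggsae young adults against 0.0450 RPKM in C. elegans and 0.263 RPKM in C. briggsae late L4 larvae. The copies of this family are nearly identical, so the level of a single member is uncertain. The family took 0.792% of the RPKM sum in C. elegans and 0.233% in C. briggsae young adults, against 0.00335% in C. elegans and 1.98e-04% in C. briggsae late L4 larvae, where the C. briggsae shares cover the 4 pairs alone.

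Of 35 other spermatogenesis pairs 17 rose and 0 fell, with a median of 1.87 against -0.12 over all pairs. The protein phosphatase gene gsp-4, which acts in sperm meiosis and motility, had 36.9 RPKM in C. elegans and 78.2 RPKM in C. briggsae young adults, against 0.577 RPKM in C. elegans and 0.722 RPKM in C. briggsae late L4 larvae (5.06 ± 0.36, adjusted p = 7.06e-05). The sperm nuclear protein gene spch-1 rose by 5.62 ± 0.52, and the sperm-specific family genes ssq-2, ssq-4 and ssp-34 by 6.42 ± 0.30, 6.19 ± 0.40 and 5.82 ± 0.30. Genes that set the sperm fate behaved otherwise. The sperm fate gene fog-3 had 2.87 RPKM in C. elegans and 7.84 RPKM in C. briggsae young adults, against 8.999 RPKM in C. elegans and 8.57 RPKM in C. briggsae late L4 larvae (-0.74 ± 0.50, adjusted p = 0.386). Its partner fog-1 had 9.71 RPKM in C. elegans and 19.1 RPKM in C. briggsae young adults, against 9.79 RPKM in C. elegans and 12.7 RPKM in C. briggsae late L4 larvae (0.27 ± 0.47, adjusted p = 0.750). In both species their late L4 values thus stood above those of gsp-4. The argonaute genes alg-3 and alg-4, which carry the small RNAs of spermatogenesis, rose by 3.57 ± 0.44 and 3.23 ± 0.24. They were 2 of the 3 argonautes called higher among 19 (15.8%, against 6.60% of all pairs).

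Of 27 pairs for RNA-binding and maternal fate regulators of the oocyte 17 rose and 0 fell, with a median of 3.14. The oocyte maturation gene oma-1 had 148.2 RPKM in C. elegans and 407.4 RPKM in C. briggsae young adults, against 4.00 RPKM in C. elegans and 6.66 RPKM in C. briggsae late L4 larvae (5.32 ± 0.43, adjusted p = 1.30e-04). The Pumilio-family translational repressor gene puf-5 had 399.8 RPKM in C. elegans and 259.8 RPKM in C. briggsae young adults, against 2.05 RPKM in C. elegans and 5.18 RPKM in C. briggsae late L4 larvae (6.22 ± 0.69, adjusted p = 6.82e-04). The zinc-finger fate genes mex-1 (5.36 ± 0.57), pos-1 (5.14 ± 0.72) and pie-1 (4.93 ± 0.75) and the Nanos gene nos-2 (5.29 ± 0.62) were of the same size. The related Pumilio gene puf-3 was not called (2.96 ± 1.44, adjusted p = 0.236), with 232.6 RPKM in C. elegans and 1.31 RPKM in C. briggsae young adults against 2.88 RPKM in C. elegans and 1.29 RPKM in C. briggsae late L4 larvae. Of the 27, 11 were called without either C. elegans library, 10 without C. briggsae late L4 larvae and 20 without C. briggsae young adults.

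Genes for the eggshell and egg activation had 18 of 23 pairs called higher and 0 lower, with a median of 4.65. The permeability barrier genes perm-4 and perm-2, neighbours on chromosome IV, led them. The gene perm-4 had 666.2 RPKM in C. elegans and 1309 RPKM in C. briggsae young adults, against 0.306 RPKM in C. elegans and 0.0806 RPKM in C. briggsae late L4 larvae (9.62 ± 1.11, adjusted p = 8.74e-04). The rise of perm-2 was 9.37 ± 1.04 (adjusted p = 7.04e-04). The chondroitin proteoglycan gene cpg-3 (6.90 ± 1.22), the C-type lectin gene clec-87 (6.48 ± 0.64), the egg surface receptor gene egg-1 (6.24 ± 1.08) and the chitin synthase gene chs-1 (4.65 ± 0.49) rose by less. The gene mbk-2, for a kinase of the oocyte-to-embryo transition, did not pass the test, with 60.5 RPKM in C. elegans and 84.5 RPKM in C. briggsae young adults, against 34.7 RPKM in C. elegans and 61.0 RPKM in C. briggsae late L4 larvae (0.63 ± 0.33, adjusted p = 0.266). The count was 12 without C. elegans young adults, 13 without C. elegans late L4 larvae and 12 without C. briggsae late L4 larvae.

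Genes listed for the gonad and uterus, gap junction genes of the germ line among them, were called in 8 of 16 pairs, 7 of them higher. The 4 genes named for uterine lumen expression rose most. The gene ule-3 (V, 10793798 to 10794924) had 469.2 RPKM in C. elegans and 855.9 RPKM in C. briggsae young adults, against 0.0770 RPKM in C. elegans and 0.403 RPKM in C. briggsae late L4 larvae (9.01 ± 1.08, adjusted p = 0.00104). For ule-5, ule-1 and ule-2 the rises were 8.92 ± 0.86, 7.34 ± 0.76 and 5.47 ± 0.49. The gap junction genes of the germ line and gonadal sheath inx-14 (3.10 ± 0.55), inx-22 (3.08 ± 0.49) and inx-9 (2.74 ± 0.68) rose as well, while the gonadal transcription factor gene fkh-6 fell by 1.26 ± 0.33. The median of the 16 was -0.10, and 0.16 under quantile normalization, and 7 were at least 2-fold higher and 2 at least 2-fold lower in each species. Among 66 neuronal pairs tbh-1 and tdc-1 were called higher (3.03%, against 6.60% of all pairs) and unc-64 lower (1.52%, against 1.68%). The neuronal median was -0.93, with 43 of the 66 at least 2-fold lower in C. elegans, 21 in C. briggsae and 17 in both, and 26 had an unadjusted p under 0.05. The enzymes TDC-1 and TBH-1 make tyramine and octopamine, in neurons and in the gonadal sheath. The gene tbh-1 had 62.3 RPKM in C. elegans and 41.3 RPKM in C. briggsae young adults, against 0.421 RPKM in C. elegans and 0.420 RPKM in C. briggsae late L4 larvae (5.19 ± 0.41, adjusted p = 1.14e-04), and tdc-1 rose by 2.92 ± 0.50. Without the C. elegans late L4 library 5 of the 16 gonad and uterus pairs were called higher, and without the C. briggsae late L4 library 4.

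Genes of dividing and meiotic cells moved by smaller amounts but in large numbers. Of 62 pairs for the cell cycle and DNA replication 39 rose and 1 fell, with a median of 1.80. The B-type cyclin gene cyb-3 had 411.2 RPKM in C. elegans and 420.8 RPKM in C. briggsae young adults, against 21.8 RPKM in C. elegans and 73.9 RPKM in C. briggsae late L4 larvae (3.33 ± 0.46, adjusted p = 0.00255). The replication genes mcm-7, a helicase subunit, and pcn-1, the sliding clamp, rose by 2.60 ± 0.44 and 2.55 ± 0.34. The single fall was that of cki-1, a cyclin-dependent kinase inhibitor, at 2.97 RPKM in C. elegans and 1.86 RPKM in C. briggsae young adults against 28.0 RPKM in C. elegans and 9.66 RPKM in C. briggsae late L4 larvae (-2.39 ± 0.57, adjusted p = 0.0353). Of 34 genes of the meiotic chromosome axis and synapsis 10 rose and 0 fell (median 1.54), led by lab-1 (3.85 ± 0.50), which acts in chromosome cohesion, and the axis gene htp-2 (2.34 ± 0.46). Of 31 genes for P granules and germline translation 7 rose and 0 fell (median 1.32), among them the RNA helicase gene cgh-1 (3.16 ± 0.78) and the P granule scaffold gene pgl-1 (2.095 ± 0.55).

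Most of these calls rested on single libraries. The cell cycle count was 5 higher and 1 lower without C. elegans young adults, 4 and 0 without C. elegans late L4 larvae, and 9 and 0 without C. briggsae late L4 larvae. The meiotic count was 1 without each of these 3 libraries, and the P granule count 0. The C. elegans L2 library moved them also, to 4 meiotic and 3 P granule genes without it. By size alone, 50 of 62 cell cycle, 22 of 34 meiotic and 15 of 31 P granule pairs were at least 2-fold higher in each species, against 9.84% of all pairs. The germline fate regulator gld-1 rose by 3.14 ± 0.58 as the single called member of 19 sex determination pairs (5.26%, against 6.60% of all pairs). That call was lost without either C. elegans library and without C. briggsae late L4 larvae. The gene had 362.4 RPKM in C. elegans and 233.3 RPKM in C. briggsae young adults, against 28.9 RPKM in C. elegans and 35.6 RPKM in C. briggsae late L4 larvae.

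**Figure D3:**
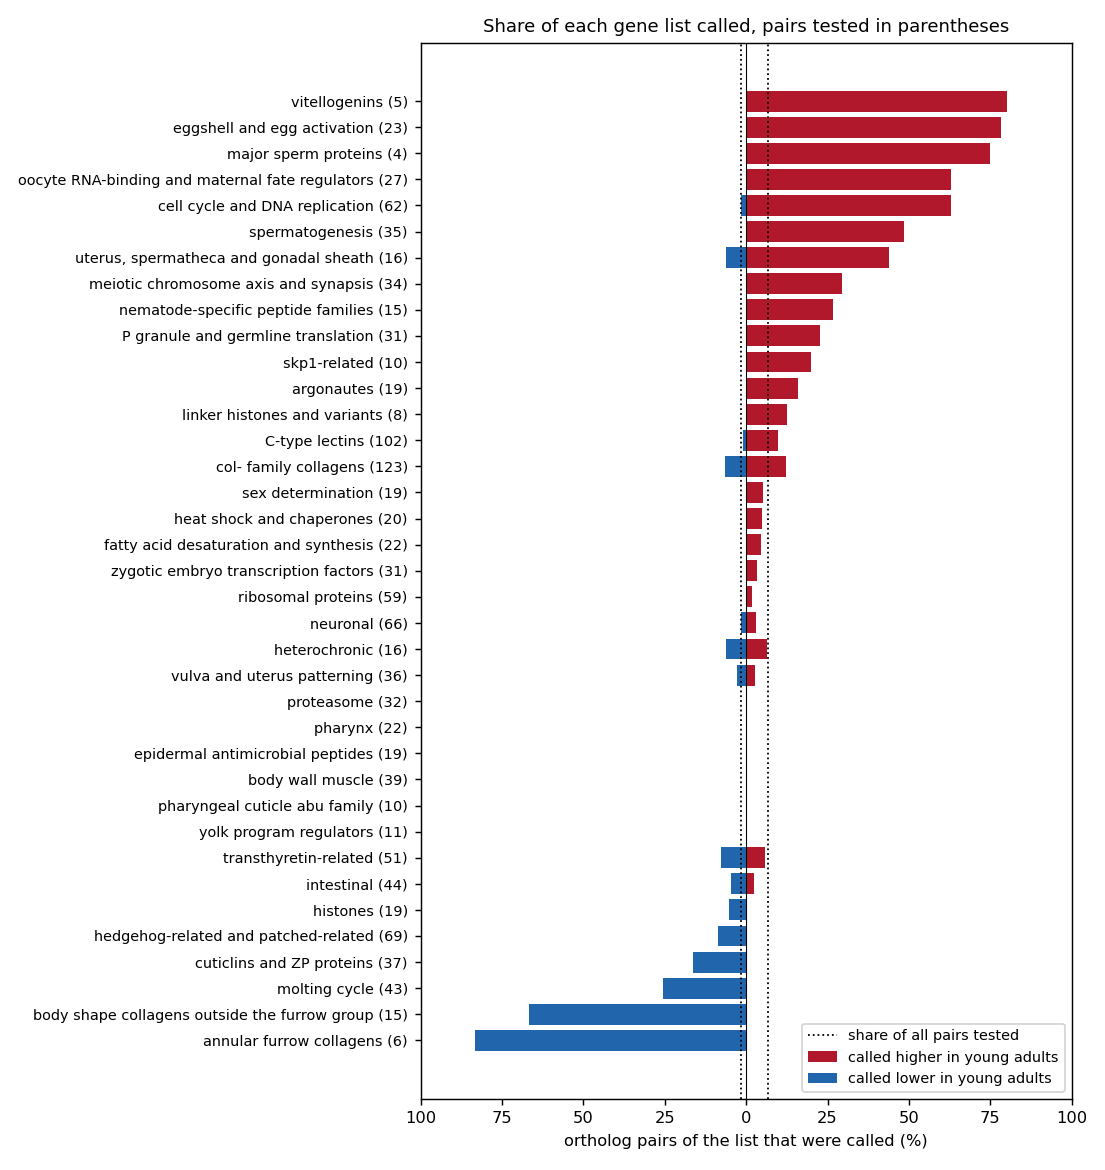
Percent of the tested ortholog pairs of each gene list that were called higher (red, to the right) or lower (blue, to the left) in young adults, with the number of pairs tested in parentheses. Dotted lines mark the shares over all pairs tested, 6.60% higher and 1.68% lower; yolk, eggshell, sperm and oocyte lists lie at the top and furrow and body shape collagens at the bottom.

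Collagens that shape the larval and adult body fell steeply. Of 6 annular furrow collagens, which form the circumferential furrows of the cuticle, 5 fell, with a median of -5.87. The furrow collagen gene dpy-7 (X, 7536467 to 7537792) had 0.133 RPKM in C. elegans and 0.181 RPKM in C. briggsae young adults, against 340.4 RPKM in C. elegans and 25.5 RPKM in C. briggsae late L4 larvae (-6.36 ± 1.42, adjusted p = 0.0271). The falls of dpy-9, dpy-3, dpy-8 and dpy-2 lay between -5.95 and -5.66. The sixth, dpy-10, had 2.54 RPKM in C. elegans and 0.501 RPKM in C. briggsae young adults, against 290.2 RPKM in C. elegans and 20.8 RPKM in C. briggsae late L4 larvae (-5.11 ± 1.36, adjusted p = 0.0504). Their median change was -7.63 in C. elegans and -4.002 in C. briggsae, and that of dpy-8 was less negative in C. briggsae by 4.09 ± 0.45 (adjusted p = 0.00259). In C. briggsae the median of the 6 was highest in the L3 library (8.69 on the log2 scale) and was 4.77 in late L4 larvae, while in C. elegans it was 8.46 in late L4 larvae. None of the 6 was called without C. elegans young adults, C. elegans late L4 larvae or C. briggsae young adults.

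Of 15 other collagens with body shape phenotypes 10 fell and 0 rose, with a median of -5.60. The gene sqt-1 (II, 11336693 to 11337837) had 2.24 RPKM in C. elegans and 2.66 RPKM in C. briggsae young adults, against 567.8 RPKM in C. elegans and 124.4 RPKM in C. briggsae late L4 larvae (-6.28 ± 0.88, adjusted p = 0.00263). For dpy-13 the values were 10.5 RPKM in C. elegans and 13.2 RPKM in C. briggsae young adults, against 588.0 RPKM in C. elegans and 1078 RPKM in C. briggsae late L4 larvae (-5.96 ± 1.32, adjusted p = 0.0266). Collagens of the struts of the adult cuticle differed between the species. The strut collagen gene bli-1 fell (-4.33 ± 1.104, adjusted p = 0.0438), with 0.794 RPKM in C. elegans and 2.17 RPKM in C. briggsae young adults against 188.8 RPKM in C. elegans and 11.07 RPKM in C. briggsae late L4 larvae. Its partner bli-2 had 1.46 RPKM in C. elegans and 6.47 RPKM in C. briggsae young adults, against 304.9 RPKM in C. elegans and 9.55 RPKM in C. briggsae late L4 larvae, and was not called (-3.73 ± 1.60, adjusted p = 0.189). The changes of bli-1 and bli-2 were less negative in C. briggsae by 4.79 ± 0.38 and 6.46 ± 0.40 (adjusted p = 7.31e-04 and 4.63e-04). Of the 15, 2 were called without C. elegans young adults, 1 without C. elegans late L4 larvae and 3 without C. briggsae young adults.

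Of 37 cuticlins and proteins with zona pellucida or related matrix domains 6 fell and 0 rose, with a median of -1.34. The ZP-domain gene noah-1 had 0.726 RPKM in C. elegans and 1.03 RPKM in C. briggsae young adults, against 532.4 RPKM in C. elegans and 33.5 RPKM in C. briggsae late L4 larvae (-6.18 ± 1.19, adjusted p = 0.0140). The lipocalin-related gene lpr-3 (-6.75 ± 1.34) and the leucine-rich repeat gene sym-1 (-6.55 ± 1.16) were also among the 6. Without either C. elegans library none of the 37 was called, and 3 were called without C. briggsae young adults and 4 without C. briggsae late L4 larvae. Outside this list, the lipocalin-related genes lpr-4 and lpr-6, which stand close to lpr-3 on chromosome X, were among the 12 largest falls of all pairs (-6.34 ± 1.43 and -6.64 ± 1.28). The gene dbd-2 (II, 4562950 to 4563461), with the second largest fitted fall of all pairs, had 3.43 RPKM in C. elegans and 1.92 RPKM in C. briggsae young adults, against 2809 RPKM in C. elegans and 181.8 RPKM in C. briggsae late L4 larvae (-7.64 ± 1.45, adjusted p = 0.0132).

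Of 43 molting genes 11 fell (25.6%, against 1.68% of all pairs) and 0 rose, with a median of -1.56. The protease inhibitor-like gene mlt-11 had 0.127 RPKM in C. elegans and 0.365 RPKM in C. briggsae young adults, against 261.5 RPKM in C. elegans and 14.6 RPKM in C. briggsae late L4 larvae (-5.69 ± 1.33, adjusted p = 0.0328). The oscillating regulator lin-42, a relative of the clock gene period, fell (-4.39 ± 1.07), as did the gene myrf-1 for a membrane-bound transcription factor (-3.48 ± 0.89). The nuclear receptor gene nhr-23, an early regulator of the molting cycle, had 14.4 RPKM in C. elegans and 19.4 RPKM in C. briggsae young adults, against 30.6 RPKM in C. elegans and 17.1 RPKM in C. briggsae late L4 larvae (-0.43 ± 0.60, adjusted p = 0.681). The protease gene nas-37, needed to shed the old cuticle, had 11.3 RPKM in C. elegans and 23.6 RPKM in C. briggsae young adults, against 41.1 RPKM in C. elegans and 4.27 RPKM in C. briggsae late L4 larvae, and the species differed in its change (4.00 ± 0.51, adjusted p = 0.00410). Of 69 hedgehog-related and patched-related genes 6 fell (8.70%, against 1.68% of all pairs) and 0 rose. The falls were led by wrt-10 (-6.59 ± 1.26) and the patched-related gene ptr-4 (-5.34 ± 1.19). The molting count was 0 without C. elegans young adults, 1 without C. elegans late L4 larvae, 6 without C. briggsae young adults, 3 without C. briggsae late L4 larvae and 7 without the C. elegans L2 library. The hedgehog count was 0 without C. elegans young adults, 1 without C. elegans late L4 larvae and 4 without either C. briggsae library.

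**Figure D4:**
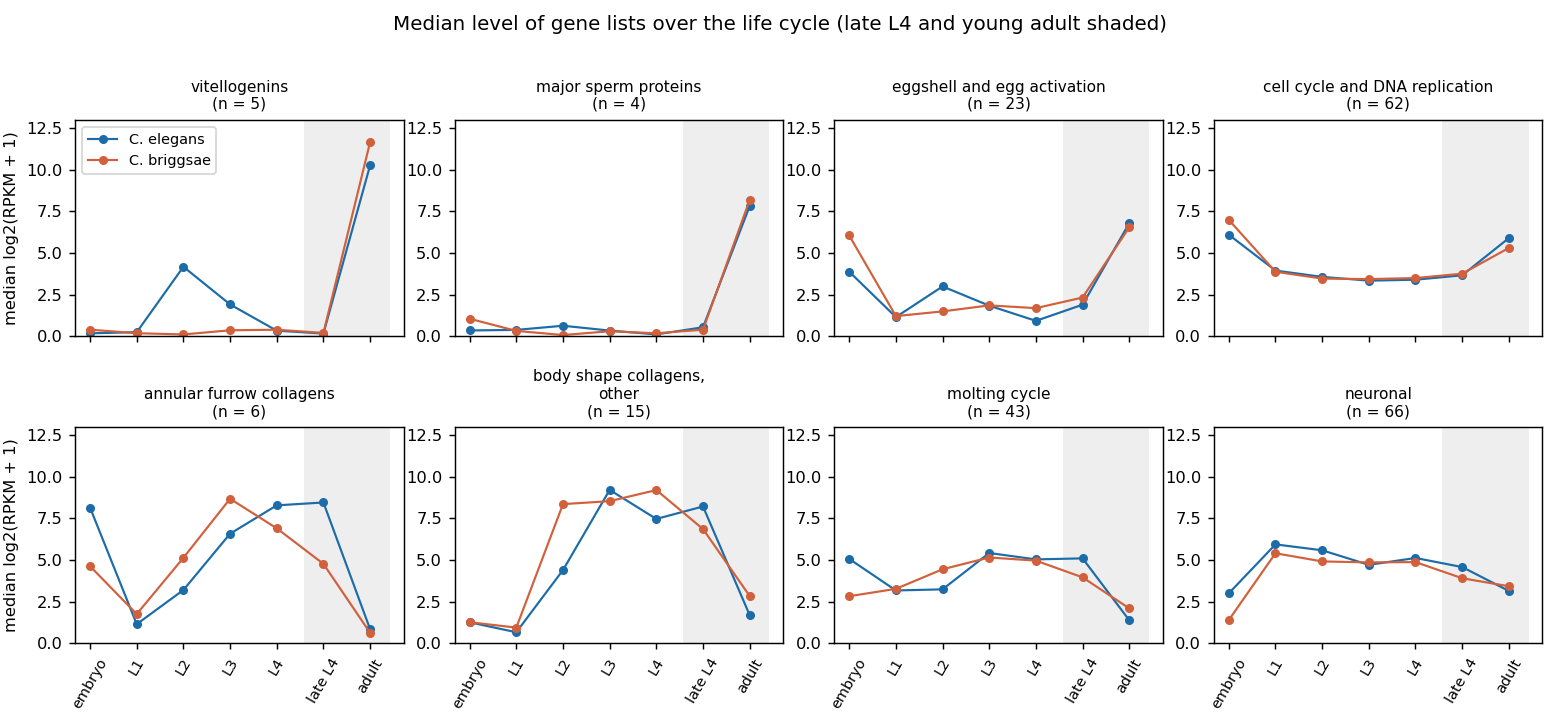
Median log2(RPKM + 1) over the tested pairs of 8 gene lists in embryos, L1 to L4 larvae, late L4 larvae and young adults of C. elegans (blue) and C. briggsae (orange), culture A, with the last 2 stages shaded. Yolk and major sperm protein medians leave the bottom of the scale in young adults apart from the C. elegans L2 and L3 libraries, where the yolk median was 4.17 and 1.91, and the furrow collagen median of C. briggsae had its peak in L3.

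Timing and organ patterning genes gave few calls. Of 16 heterochronic genes, which order the larval stages, lin-41 rose (2.73 ± 0.52, adjusted p = 0.0136) and lin-42 fell. Each is 6.25% of the list, against 6.60% of all pairs called higher and 1.68% called lower. The median of the 16 was -1.51, and by limma 10 had an unadjusted p under 0.05. At least 2-fold lower in each species were 9 of the 16, against 8.13% of all pairs, and 1 was at least 2-fold higher. The gene lin-41, which also acts in oocytes, had 73.8 RPKM in C. elegans and 62.4 RPKM in C. briggsae young adults, against 9.84 RPKM in C. elegans and 8.95 RPKM in C. briggsae late L4 larvae. The adult-fate factor lin-29 had 2.58 RPKM in C. elegans and 4.11 RPKM in C. briggsae young adults, against 31.1 RPKM in C. elegans and 13.3 RPKM in C. briggsae late L4 larvae (-2.32 ± 0.77, adjusted p = 0.102). Of 36 genes of vulva and uterus patterning the Notch ligand gene apx-1 rose (2.71 ± 0.55) and the zinc-finger gene vab-23 fell (-2.28 ± 0.55), each 2.78% of the list. The median of the 36 was -0.59, and by limma 12 had an unadjusted p under 0.05. In each species 9 of the 36 were at least 2-fold lower and 4 at least 2-fold higher. The calls of both lists depended on single libraries. The lin-41 call was lost without C. elegans young adults or C. briggsae late L4 larvae and the lin-42 call without any 1 of the 4 libraries, while 0 vulval genes were called without C. elegans young adults, C. elegans late L4 larvae or C. briggsae late L4 larvae.

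Genes of other tissues gave few calls. By limma, 0 of 39 body wall muscle, 22 pharynx, 32 proteasome, 19 epidermal antimicrobial and 10 abu pairs of the pharyngeal cuticle were called in either direction. At an unadjusted p under 0.05 the counts were 3 muscle, 3 pharynx, 2 proteasome, 1 antimicrobial and 1 abu pairs. All 22 fitted pharynx differences were negative, with 11 at least 2-fold lower in C. elegans, 14 in C. briggsae and 7 in both. Of the 10 abu pairs 5 were at least 2-fold lower in each species, against 8.13% of all pairs. Of the 19 antimicrobial pairs 7 were lower by that size in C. elegans, 8 in C. briggsae and 2 in both. The same held in both species for 2 of the 39 muscle and 0 of the 32 proteasome pairs. The abu genes had a median change of -1.03 in C. elegans and -5.41 in C. briggsae. Of 44 intestinal genes 1 rose (2.27%, against 6.60% of all pairs) and 2 fell (4.55%, against 1.68%). Their median was -0.74, with 28 of the 44 at least 2-fold lower in C. elegans, 14 in C. briggsae and 13 in both, and 16 had an unadjusted p under 0.05. The gut protease gene cpr-5 had 367.4 RPKM in C. elegans and 453.6 RPKM in C. briggsae young adults, against 2274 RPKM in C. elegans and 2897 RPKM in C. briggsae late L4 larvae (-2.65 ± 0.49, adjusted p = 0.0117). The acid phosphatase gene pho-1 fell by 2.198 ± 0.44, and the metallothionein gene mtl-2 rose by 3.38 ± 0.82. Of 59 ribosomal protein pairs 1 was called, the paralog rpl-11.1 (1.695%, against 6.60% of all pairs called higher). It stood at 1674 RPKM in C. elegans and 1542 RPKM in C. briggsae young adults. In late L4 larvae it was at 474.0 RPKM in C. elegans and 802.5 RPKM in C. briggsae (1.38 ± 0.30, limma adjusted p = 0.0229). Its copy rpl-11.2 was not called (-1.23 ± 0.60, adjusted p = 0.240), with 746.5 RPKM in C. elegans and 884.4 RPKM in C. briggsae young adults against 1727 RPKM in C. elegans and 2106 RPKM in C. briggsae late L4 larvae. Without the C. briggsae late L4 library 0 intestinal and 0 ribosomal pairs were called, and the same counts were found without either C. elegans library. Under median-ratio scaling 0 ribosomal pairs were called.

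Of 102 C-type lectin pairs 10 rose (9.80%, against 6.60% of all pairs) and 1 fell (0.9804%, against 1.68%), shares near those of all pairs. The lectin gene clec-91 was at 175.0 RPKM in C. elegans and 45.0 RPKM in C. briggsae young adults, against 0.994 RPKM in C. elegans and 0.687 RPKM in C. briggsae late L4 larvae (5.62 ± 0.49, adjusted p = 2.05e-04). Of 51 transthyretin-related pairs 3 rose (5.88%), led by ttr-14 (4.01 ± 0.37), and 4 fell (7.84%), led by ttr-29 (-3.07 ± 0.59). Among chaperones sip-1, a small heat shock protein gene, was the single call of 20 pairs (5%, against 6.60% of all pairs). It was at 4210 RPKM in C. elegans and 1140 RPKM in C. briggsae young adults. In late L4 larvae it was at 487.5 RPKM in C. elegans and 188.0 RPKM in C. briggsae (2.85 ± 0.62, limma adjusted p = 0.0249). The other lists with few calls were Skp1-related genes with 2 of 10 higher (20%) and linker histones and variants with htz-1 of 8 higher (12.5%). Core histones had his-26 of 19 lower (5.26%). Fatty acid genes had elo-8 of 22 higher (4.55%) and zygotic transcription factors tbx-9 of 31 higher (3.23%). Without the C. elegans late L4 library 2 transthyretin pairs were called lower, and without either C. briggsae library also 2; the sip-1 call was lost without each library except C. briggsae young adults.

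The species differed in the size or direction of the change for 1154 pairs by a test over 18 cultures (limma, adjusted p under 0.05; 3153 at unadjusted p under 0.05). The change was more positive in C. briggsae for 724 pairs (5.59%) and more negative for 430 (3.32%). This test takes its error from embryo and L1 cultures, the stages with more than 1 culture, and assumes that late L4 larvae and young adults vary like them. The source of the ortholog pairing is unknown, and its part in the species differences was not tested. Among all pairs 54 were at least 2-fold lower in C. briggsae and 2-fold higher in C. elegans young adults, and 110 the reverse. Of the 54, 6 were col- genes, which made up 0.950% of the pairs tested, and of the 110 there were 0. The gene col-7 had 233.4 RPKM in C. briggsae young adults against 3887 RPKM in late L4 larvae, and 72.7 RPKM in C. elegans young adults against 0.591 RPKM in late L4 larvae, a species difference of -9.59 ± 0.41 (adjusted p = 1.03e-04). For col-135 the values were 2.18 RPKM in C. briggsae young adults against 1872 RPKM in late L4 larvae, and 17.7 RPKM in C. elegans young adults against 0.0388 RPKM in late L4 larvae (-13.37 ± 1.71, adjusted p = 0.00417). Of 123 col- pairs the change was more negative in C. briggsae for 36 and more positive for 12, and col-159 was another collagen with opposite directions (-6.93 ± 0.47).

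Among pairs with a more positive change in C. briggsae, C54E10.1 had 931.4 RPKM in C. briggsae young adults against 3.60 RPKM in late L4 larvae, and 0.103 RPKM in C. elegans young adults against 0.104 RPKM in late L4 larvae (7.67 ± 0.48, adjusted p = 4.63e-04). The genes pud-3 and pud-4, neighbours on chromosome V, had 222.3 and 237.0 RPKM in C. briggsae young adults against 0.110 and 0.116 RPKM in late L4 larvae. In C. elegans they had 5.34 and 3.79 RPKM in young adults against 5.10 and 2.21 RPKM in late L4 larvae. Their species differences were 7.60 ± 1.00 and 7.16 ± 0.65 (adjusted p = 0.00446 and 0.00121). The saposin-like gene spp-9 had 0.261 RPKM in C. briggsae young adults against 1.74 RPKM in late L4 larvae, and 0.113 RPKM in C. elegans young adults against 318.4 RPKM in late L4 larvae (7.05 ± 0.60, adjusted p = 9.79e-04). The pair K04G2.7 was higher in C. briggsae and lower in C. elegans young adults, with 36.5 RPKM in C. briggsae young adults against 1.96 RPKM in late L4 larvae, and 0.559 RPKM in C. elegans young adults against 9.68 RPKM in late L4 larvae (6.44 ± 0.47, adjusted p = 5.31e-04). The inducible chaperone gene hsp-70 had 2.25 RPKM in C. briggsae young adults against 91.4 RPKM in late L4 larvae, and 8.08 RPKM in C. elegans young adults against 1.08 RPKM in late L4 larvae (-6.95 ± 0.79, adjusted p = 0.00276). Under quantile normalization the split was 550 more positive and 494 more negative, and under median-ratio scaling 793 and 650.

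Of the 7836 C. elegans IDs with no C. briggsae value, 3099 had a mean of at least 1 RPKM over the C. elegans young adult and late L4 libraries. With 1 library per stage and no second species, these have no replicate check and are described by size alone. Of the 3099, 540 had the ratio of 0.983 between young adults and late L4 larvae that 3433 C. elegans IDs shared within 0.01%, which fits equal read numbers in both libraries. Since the deposited values held no 0, whether these 540 had any reads is unknown. They were kept among the 3099. At least 2-fold higher in young adults were 1024 (33.0%) and at least 2-fold lower 593 (19.1%), on the scale of log2(RPKM + 1). By the same rule 22.5% of the C. elegans side of 10713 ortholog pairs was higher and 29.2% lower. At least 16-fold higher were 151 IDs, and 39 were at least 16-fold lower. At least 100 RPKM in young adults with under 1 RPKM in late L4 larvae was reached by 35 IDs, and 16 of these were major sperm proteins; 1 ID met the reverse.

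All 25 major sperm protein genes in this set were higher, by a median of 6.69 (log2) and a range of 3.74 to 7.90. The gene msp-76 had 309.5 RPKM in young adults and 0.297 RPKM in late L4 larvae. Of 18 spermatogenesis genes 17 were at least 2-fold higher, among them the phosphatase gene gsp-3 at 39.4 RPKM in young adults against 0.667 RPKM in late L4 larvae. All 6 oocyte regulators were higher, as with oma-2 at 286.9 RPKM in young adults against 5.11 RPKM in late L4 larvae. Among small peptide families that are specific to nematodes, 7 of 7 nspa and 6 of 6 nspd genes were higher, for example nspd-2 at 268.2 RPKM in young adults against 0.380 RPKM in late L4 larvae, whereas 9 of 15 nspc and 4 of 5 nspe genes were at least 2-fold lower. Of the ortholog pairs of the same subfamilies 3 of 3 nspd pairs rose, among them nspd-6 (6.57 ± 0.45), and 1 of 2 nspa pairs, nspa-4 (7.71 ± 0.55). The other, nspa-9, was not called (2.35 ± 1.035, adjusted p = 0.197), with 0.379 RPKM in C. elegans and 47.3 RPKM in C. briggsae young adults against 0.386 RPKM in C. elegans and 0.840 RPKM in C. briggsae late L4 larvae.

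**Figure D5:**
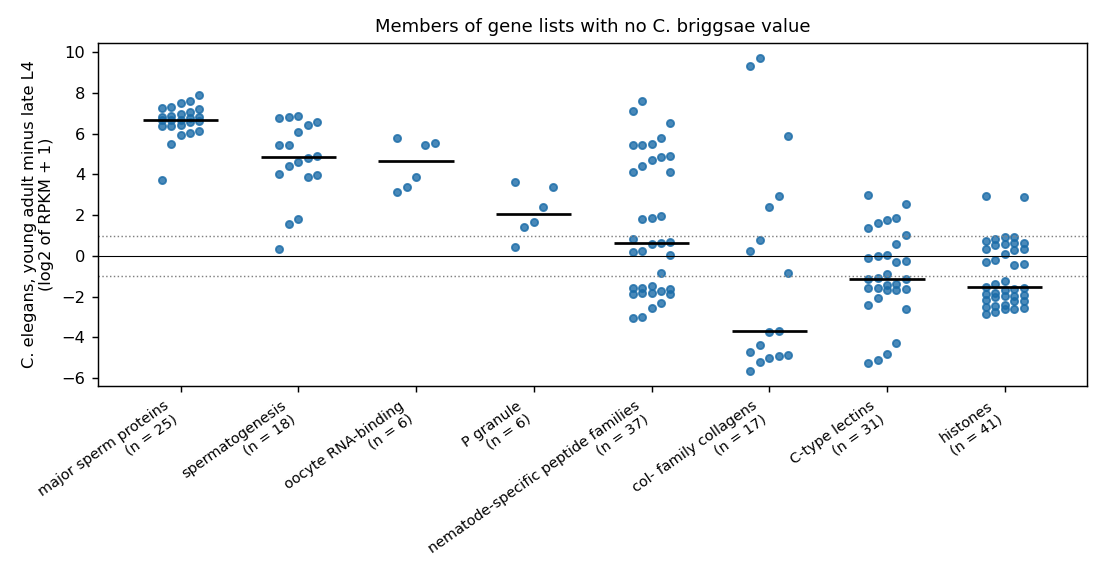
Log2 difference of RPKM + 1 between C. elegans young adults and late L4 larvae for members of 8 gene lists that have no C. briggsae value and a mean of at least 1 RPKM, 1 point per gene, with the median as a bar and 2-fold as dotted lines. All major sperm protein and oocyte genes lie above 0, while 23 of 41 histone and 17 of 31 C-type lectin genes lie at or below the lower dotted line.

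Cuticle genes again went both ways. The collagen col-119 had 3644 RPKM in C. elegans young adults and 3.37 RPKM in late L4 larvae, and col-8 had 1136 RPKM in young adults and 0.745 RPKM in late L4 larvae. By contrast col-3 had 57.0 RPKM in young adults and 2186 RPKM in late L4 larvae, and the 3 neighbours col-168, col-169 and col-170 on chromosome X had 19.1, 7.71 and 8.30 RPKM in young adults against 593.8, 279.5 and 277.4 RPKM in late L4 larvae. Among IDs with a gene name, the most negative difference was that of the carboxylesterase gene cest-1.1, at 1.11 RPKM in young adults and 129.6 RPKM in late L4 larvae. The insulin-like gene ins-35 had 0.528 RPKM in young adults and 77.5 RPKM in late L4 larvae, and the aspartyl protease gene asp-8 had 17.2 RPKM in young adults and 565.0 RPKM in late L4 larvae. Of 31 C-type lectin genes 17 were at least 2-fold lower and 7 higher, with clec-15 at 0.0590 RPKM in young adults and 39.8 RPKM in late L4 larvae. Core histone genes, whose transcripts mostly lack the poly(A) tail used for capture, were at least 2-fold lower in 23 of 41 cases and higher in 2.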

How the data were processed

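Poly(A)-selected RNA of whole, staged animals was sequenced, and the authors deposited 1 table of RPKM values with 21774 gene IDs and 26 libraries. The submitters' processing notes name BWA 0.5.7 as the aligner. Which genome build, gene models, rule of counting and ortholog table lie behind the values is not given in the sources used here, so the treatment of reads shared by near-identical genes and the absolute read depth are unknown. The table held no 0. Of its C. elegans IDs, 3433 shared 1 ratio of young adult to late L4 value within 0.01%, with 416 more at double that ratio, as whole reads would give, which puts the relative depth of young adults to late L4 larvae at 1.018. In C. briggsae 699 IDs shared a ratio of 1.014.

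Values were taken as log2(RPKM + 1), which understates changes of low genes. Pairs with at least 1 RPKM in 2 of 14 samples (culture A of 7 stages in 2 species, repeat libraries of embryos and L1 larvae averaged) were fitted with limma 3.58.1 in R 4.3.3 as stage plus species, with 6 residual degrees of freedom, a trended prior and Benjamini-Hochberg adjustment at 0.05. Species thus act as the replicates, and p-values also carry the variation of earlier stages. Differences between species came from a fit of stage and species cell means over 18 cultures, with 4 residual degrees of freedom. The script was tested on simulated data. IDs with no C. briggsae value were described by a 2-fold rule at a mean of at least 1 RPKM. Coordinates are those of the C. elegans genes in Ensembl (WBcel235), matched by sequence name for 18800 IDs.

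The members and gene lists were chosen with earlier results of these data known. Text names were taken by rule: the 12 largest called rises and falls, up to 4 called members per list and all of lists up to 12, the 10 largest C. elegans-only rises and falls with a symbol, the 5 largest species differences each way and the markers. Not all of these are named, and some members that were not called were named after their values were seen. Pseudocounts, filters, scalings, the samples of the fit, the species term and each library were varied.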

Additional observations from a re-analysis of the deposited data

Results flagged for a closer look

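For 36 of the named pairs the change differed between the species in the fit of cell means (limma, adjusted p under 0.05), each given as C. briggsae minus C. elegans on the log2 scale. The interval between the stages was 10 h in C. briggsae and 5 h in C. elegans, so species and interval cannot be told apart. Late L4 levels differed as well. For bli-1 they were 188.8 RPKM in C. elegans and 11.07 RPKM in C. briggsae, and for col-19 0.205 RPKM in C. elegans and 55.7 RPKM in C. briggsae. Whether the late L4 larvae of the species were at the same phase was not tested.

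The change was more negative in C. briggsae for the collagen genes col-135 (-13.37), col-7 (-9.59), col-159 (-6.93), col-19 (-5.83), col-184 (-3.59), col-106 (-3.24), col-176 (-2.79) and col-81 (-2.02). The same held for vit-1 (-10.23), hsp-70 (-6.95), puf-3 (-5.90), pos-1 (-3.02), cyb-3 (-1.68) and puf-5 (-1.64). Of these, col-135, col-7, col-159, vit-1 and hsp-70 ran in opposite directions in the species.

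The change was more positive in C. briggsae for C54E10.1 (7.67), pud-3 (7.60), pud-4 (7.16), spp-9 (7.05), K04G2.7 (6.44), msp-32 (5.57), nspa-9 (4.72), inx-9 (2.99), vit-4 (2.23), perm-2 (1.89), alg-3 (1.78), ule-1 (1.64), spch-1 (1.27) and ttr-14 (1.21). The difference was also positive, with a less negative change in C. briggsae, for the cuticle and molting genes bli-2 (6.46), bli-1 (4.79), wrt-10 (4.55), mlt-11 (4.35), dpy-8 (4.09), dpy-9 (3.05) and sqt-1 (2.36). For nas-37 (4.00) the C. briggsae value was higher and the C. elegans value lower in young adults than in late L4 larvae.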

How the results depend on the processing

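None of the 1072 called pairs turned sign under any alternative to the additive fit that tested it, but the number of calls varied. Changes of the filter, the prior, the species term or the other stages leave the fitted difference of a pair as it is. Those alternatives could not turn a sign. The called pairs also had the same direction in both species, so leaving out 1 library had little room to turn one. The 4 libraries alone gave 30 higher and 4 lower, and the fit from L2 to young adults 1181 and 533. A pseudocount of 5 left 121 called lower. The species number pairs the libraries as a block; without that block 433 pairs were called higher and 59 lower. Leaving out 1 of the 4 libraries gave 300 to 933 higher and 21 to 230 lower. Without the C. elegans L2 library, an alternative chosen after seeing the data, there were 643 and 158. Of 95 named called pairs, 17 stayed called with the 4 libraries alone, 49 stayed called without C. elegans late L4 larvae, 51 without C. elegans young adults, 65 without C. briggsae late L4 larvae and 74 without C. briggsae young adults.

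More positive changes in C. briggsae numbered 446 and more negative ones 240 at a pseudocount of 0.1, and median-ratio scaling gave 650 more negative. Without 1 culture they ranged from 460 to 970 and from 268 to 586, with the fewest when a C. elegans embryo culture was left out. Of C. elegans IDs with no C. briggsae value, 552 were higher and 266 lower at a pseudocount of 5, and 519 and 291 at a mean of at least 5 RPKM.

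Fitted differences of some named pairs that were not called turned sign. That of col-7 was -0.12 at a pseudocount of 5. Over the fits without 1 of the 4 libraries, the lowest value came without C. elegans young adults and the highest without C. briggsae young adults for tbx-37 (-0.38 to 0.18), col-7 (-2.12 to 3.60), vit-1 (-0.58 to 8.72), col-135 (-7.99 to 2.96), puf-3 (-0.0119 to 5.94) and col-159 (-3.20 to 1.03). The lowest came without C. briggsae young adults and the highest without C. elegans young adults for fog-3 (-1.58 to 0.0918), fog-1 (-0.19 to 0.74), C54E10.1 (-0.46 to 8.12), pud-3 (-0.31 to 8.02), pud-4 (-0.0395 to 8.35) and K04G2.7 (-2.35 to 3.24). For nas-37 they were -1.57 without C. briggsae late L4 larvae and 2.02 without C. elegans late L4 larvae, and for hsp-70 -3.67 without C. elegans late L4 larvae and 0.97 without C. briggsae late L4 larvae. The cause was not tested. Absolute read depth is unknown, and each late L4 and young adult group is 1 culture.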

Other observations

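The share of pairs called higher in young adults differed between chromosomes of the C. elegans gene. It was 10.3% of 2028 pairs on chromosome I, 7.85% on II, 8.11% on III and 8.60% on IV, against 3.97% on V and 1.76% of 1880 pairs on X. The share called lower was 2.93% on X and 0.937% on I. Several of the largest rises stand on X all the same. Among them are the yolk genes vit-2, vit-3 and vit-4, the genes ule-5, W03G11.1 and stha-3, and the collagen genes col-19, col-178 and col-184.

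As a description with no test, 749 of the 854 pairs called higher in young adults were also higher in embryos than in L1 larvae, with a median difference of 1.31 (log2). Of the 218 pairs called lower 76 were, with a median of -1.15, and of all 12945 pairs tested 6756 were, with a median of 0.07. Embryo and L1 samples enter the same fit, so that this is no independent measure of error.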
